A study of Tribolium castaneum with 8 samples.

Results

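The larva and the adult are the 2 feeding stages of Tribolium castaneum, the red flour beetle, which infests stored grain and passes through a pupa between them. Both live in flour, but the larva grows, moults and lays down reserves while the adult walks, flies, mates and breeds. This comparison set the whole-body RNA library of adults against that of larvae, which are 2 of the 4 RNA libraries of the series. Adults were taken at 3 days and larvae at about 20 days. Embryos and pupae, each 3 days old, gave the other RNA libraries and are used here only for context. All beetles were of the laboratory strain GA-1 and were kept at 30°C in whole wheat flour with 5% yeast, and the labels name no treatment. How many animals went into each RNA pool, and the sex of the adults, are not given in the labels. The series also has 4 bisulfite libraries of DNA, which are not used here.

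The genes compared were those with at least 1 RPKM in the adult or the larval library. RPKM is a read number scaled by the length of the gene model and by the reads of the whole library. Between libraries it also depends on the share of reads that abundant genes take. The 20 most abundant genes took 14.0% of adult reads and 21.7% of larval reads, so other scalings were tried as well. Of 14422 genes listed in any of the 4 RNA libraries, 13873 had a read in the adult or the larval one, and 12718 passed this filter. Just inside it lay TC001781, with 1.0 RPKM in adults and 0.431 RPKM in larvae, and just outside it TC008047, with 0.347 RPKM in adults and 0.998 RPKM in larvae. The adult library held 3.09 M reads in genes and the larval library 3.58 M, and 12215 genes in adults and 11136 in larvae reached 1 RPKM. Each stage has 1 library, so no difference has a replicate check, no p-value is given, and variation between beetles of 1 stage is unknown. Fold differences are ratios of RPKM with exact (Clopper-Pearson) 95% intervals on the reads, which cover counting error only. In a whole-body library, fewer cells of a type and less RNA per cell cannot be told apart.

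An insect body turns over much of its organ make-up at metamorphosis. Larval fat body fills with hexamerins, proteins that are stored as an amino acid reserve for the pupa. The gut digests starch and protein, and its lining, the peritrophic matrix, is a net of chitin and chitin-binding proteins. Adults carry compound eyes, antennae rich in odorant-binding proteins, flight muscle and mature gonads, and they wear a hard tanned cuticle in place of the soft larval one.

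Of the genes compared, 2961 were at least 2-fold higher in adults than in larvae (23.3%) and 1743 were at least 2-fold lower (13.7%). A gene was counted on log2 of (adult RPKM + 1) over (larval RPKM + 1), which shrinks the differences of genes with few reads. The median gene stood at 0.20 on this scale. When both libraries were rescaled to a median RPKM ratio of 1, the median gene stood at 0.01, 2528 genes were higher and 2030 were lower. List medians below are therefore given relative to the median gene. List counts are to be read beside the 23.3% higher and 13.7% lower of all genes. The 2961 genes higher in adults held 39.4% of adult reads and 7.35% of larval reads, and the 1743 genes lower in adults held 3.78% of adult reads and 38.4% of larval reads. At 16-fold, 613 genes were higher in adults (4.82%) and 255 were lower (2.01%). Those 255 genes took 0.207% of adult reads against 24.8% of larval reads.

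**Figure D1:**
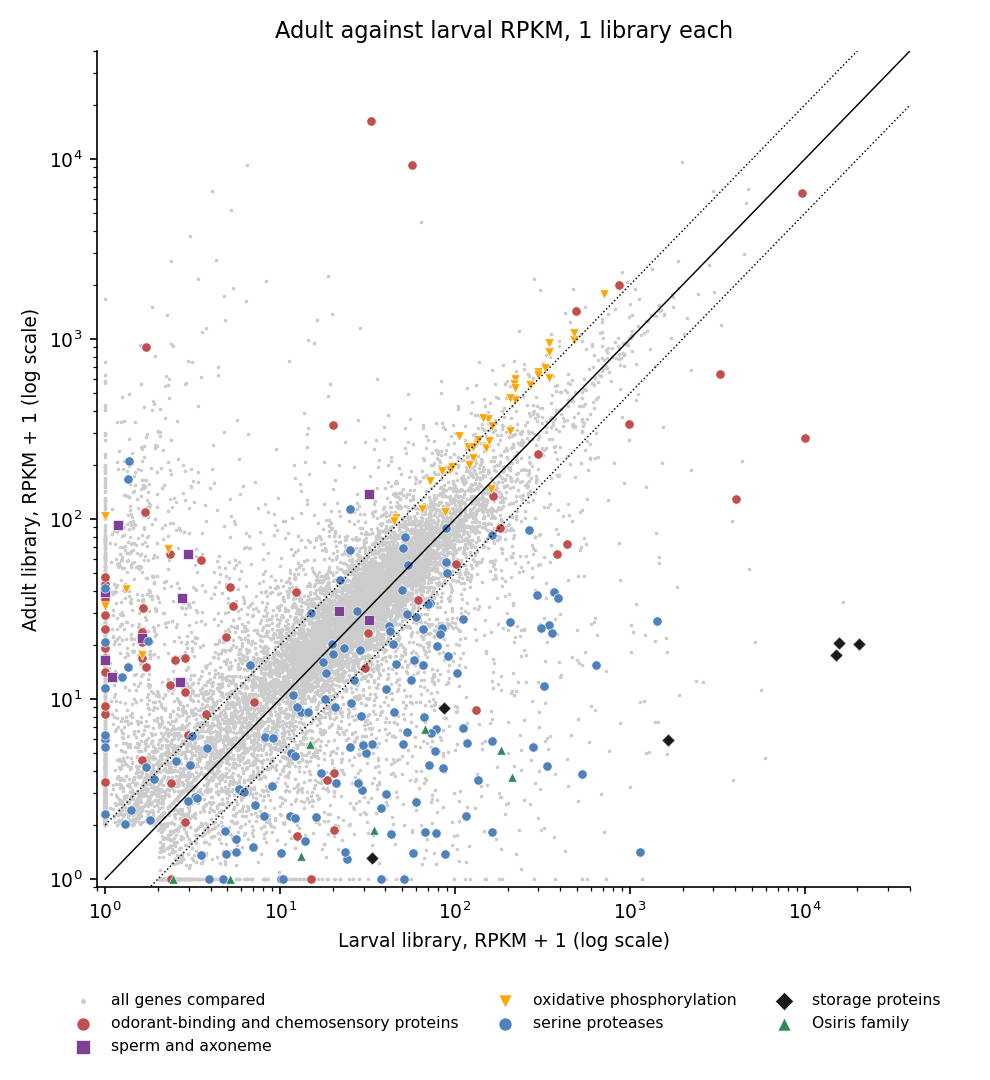
RPKM + 1 of each gene compared in the adult library (vertical axis, log scale) against the larval library (horizontal axis, log scale), with 6 gene lists in colour. The solid line marks equal values and the dotted lines 2-fold differences. Storage proteins and most serine proteases lie below the diagonal, most odorant-binding proteins and sperm and axoneme genes lie above it, and oxidative phosphorylation genes form a band near the upper dotted line.

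The stage labels were checked against marker lists. All 6 hexamerin and arylphorin genes, the larval markers, were lower in adults, and together they took 0.0151% of adult reads against 11.8% of larval reads. The adult markers were photoreception, sperm and axoneme, and yolk and eggshell genes. All 3 photoreception genes and 10 of 12 sperm and axoneme genes were higher in adults, but 0 of 3 yolk and eggshell genes were. With unrelated names kept, which were left out after the values were seen, the sperm and axoneme list had 10 of 17 higher and 1 lower, and with KEGG names added 34 of 50 were higher and none was lower. With KEGG names, 7 of 10 photoreception genes were higher and 1 was lower. This adult marker thus failed: genes named vitellogenin, the yolk precursor made in the fat body of egg-laying females, were not higher in adults. The 2 with long models, TC010839 and TC013602, had 0.241 and 0.422 RPKM in adults against 6.51 and 1.4 RPKM in larvae. Another, TC009851, named as putative, has a model of 882 bases and the KEGG entry of a RING finger protein, so its 29 RPKM in adults and 50.4 RPKM in larvae may not be those of a yolk protein. Osiris and homeobox genes had been set as markers of other stages than these. Osiris genes summed to 18.6 RPKM in adults against 524 RPKM in larvae. Of 13 homeobox genes, 6 were higher in adults and 0 were lower.

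Storage proteins showed the widest gap of the 34 lists, with a list median of -9.05 relative to the median gene on the log2 scale. Hexamerin 1B, TC005377, had 19.2 RPKM in adults and 20318 RPKM in larvae, where it alone took 4.69% of all reads, and was 1057-fold lower (95% interval 894 to 1259). Arylphorin, TC005376, and hexamerin 2, TC006769, stood at 19.6 and 16.7 RPKM in adults against 15723 and 15056 RPKM in larvae. All 3 were among the 4 most abundant genes of larvae by RPKM. The smallest gap was that of hexamerin 5, TC006515, which had 7.98 RPKM in adults and 86 RPKM in larvae. Hexamerin 5 peaked in another stage than the larva, with 22.9 RPKM in embryos, 86 in larvae, 1370.4 in pupae and 7.98 in adults.

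Enzyme families with digestive members were mostly lower in adults. Genes were matched by name, so members that act in the gut are not told apart from others. Of 146 serine proteases compared, 91 were lower in adults and 19 were higher, and the list median was -1.96 relative to the median gene. Serine protease P40, TC002785, a trypsin by its KEGG entry, had 1 read (0.415 RPKM) in adults and 3200 reads (1147 RPKM) in larvae, and was 2761-fold lower (95% interval 495 to 109094). Chymotrypsin-like proteinase 5A, TC013709, the most abundant serine protease of larvae, had 26.2 RPKM in adults and 1419.8 RPKM in larvae. Serine protease P160, TC015579, stood at 2.83 RPKM in adults against 529 RPKM in larvae.

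The minority higher in adults included genes that larvae barely used. Serine protease H88, TC008930, had 209.9 RPKM in adults and 0.374 RPKM (1 read) in larvae, and was 561-fold higher (95% interval 100.2 to 22200.3). Neither pupae nor embryos had a read of H88. Serine protease H158, TC015344, likewise had 167 RPKM in adults and 0.353 RPKM in larvae. H159, TC015390, had 40.4 RPKM in adults and 0 reads in larvae.

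Cysteine cathepsins, the lysosomal-type proteases that beetles of this family also secrete into the gut, were mostly lower in adults as well. Of 25 compared, 16 were lower in adults and 4 were higher, with a list median of -2.19 relative to the median gene, or -1.46 with KEGG names added. A cathepsin L-like proteinase, TC001950, had 2.3 RPKM in adults and 442 RPKM in larvae (192-fold lower, 95% interval 93 to 479). Its 1559 larval reads covered only 14.8% of the model, so this level rests on a small part of it. The most abundant larval cathepsin L, TC011000, stood at 149.7 RPKM in adults and 1231 RPKM in larvae, but was near absent at 0.937 RPKM in embryos and 1.66 RPKM in pupae. Cathepsin L TC011003 led the family in adults, with 203 RPKM against 809.6 RPKM in larvae. Cathepsin B TC002953 was 101-fold lower (95% interval 54.7 to 211). Only 1 gene of the 4 that were higher in adults, TC009364, passed 4-fold, with 8.69 RPKM in adults and 0.866 RPKM in larvae.

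Other digestive hydrolases numbered 63, of which 34 were lower in adults and 9 were higher. With KEGG names added, 91 of 205 were lower and 34 were higher, and the list median was -0.93 in place of -1.54 relative to the median gene. Alpha-amylase, which cuts starch, gave the clearest case: all 4 genes so named were lower in adults, and they summed to 3.74 RPKM in adults against 1113 RPKM in larvae. TC000937 had 1.98 RPKM in adults and 678 RPKM in larvae, and was 342-fold lower (95% interval 180.2 to 749.6). TC000939 had 0 reads in adults and 147 RPKM in larvae, which makes it at least 223-fold lower. Larval reads covered only 56.5% of the TC000937 model and 23.2% of the TC000939 model. These levels and folds therefore rest on part of each model. A beta-glucosidase, TC010052, had 1.72 RPKM in adults and 505 RPKM in larvae. Of 14 carboxypeptidases, 10 were lower in adults, and of 4 lysosomal alpha-mannosidases, 3 were lower.

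Lipases and aminopeptidases held members far apart in both directions. Among 11 lipases, 2 were higher in adults and 4 were lower, and among 14 aminopeptidases, 2 were higher and 4 were lower. These are small sets beside the 23.3% higher and 13.7% lower of all genes. Lipase TC011212 had 418 RPKM (1419 reads) in adults and no read in larvae, and was at least 548-fold higher. Its level was 0.247 RPKM in pupae and 0 in embryos, so it stood high in 1 library alone. Leucine aminopeptidase TC001175 had 1280.2 RPKM in adults and 3.86 RPKM in larvae (332-fold higher, 95% interval 219 to 529). In Drosophila, leucyl aminopeptidases of this kind are abundant sperm proteins, and a second cytosol aminopeptidase by KEGG entry, TC004000, had 626 RPKM in adults and 1.22 RPKM in larvae.

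Proteins of the gut lining were lower in adults too. Of 7 peritrophic matrix proteins, 6 were lower in adults, and the 7 summed to 144 RPKM in adults against 2855 RPKM in larvae. Peritrophic matrix protein 2-B, TC003275, had 41.1 RPKM in adults and 1864 RPKM in larvae, while the one member higher in adults, 5-A (TC003273), had 24.6 RPKM in adults and 4.25 RPKM in larvae. Chitin synthase 2, TC012163, the enzyme that makes gut chitin in this beetle, stood at 6.41 RPKM in adults and 54.7 RPKM in larvae. Over the whole chitin list, 15 of 21 genes were lower in adults and 4 were higher, with a list median of -2.58 relative to the median gene. With names kept that were left out as unrelated after the values were seen, 17 of 34 were lower and 8 were higher, with a median of -1.07. Chitin deacetylase 9, TC003905, had 6.79 RPKM in adults and 506 RPKM in larvae (74.6-fold lower, 95% interval 50.0 to 117). The most abundant chitin gene of adults, chitin deacetylase 1 (TC014100), differed by less than 2-fold, with 475 RPKM in adults and 291 RPKM in larvae.

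Structural cuticle proteins were shifted lower in adults. Of 72 compared, 36 were lower (50.0%, against 13.7% of all genes) and 19 were higher (26.4%, near the 23.3% of all genes). The pupal cuticle protein 78E homologue TC013136 had 3 reads (2.55 RPKM) in adults and 5283 reads (3877 RPKM) in larvae, and was 1519.5-fold lower (95% interval 519.7 to 7371). Despite its name it was at 2.86 RPKM in pupae. All 5 genes named larval cuticle protein were lower in adults, at a summed 36.6 RPKM in adults against 3444 RPKM in larvae, and A3A (TC000724) stood at 4.02 RPKM in adults against 1232 RPKM in larvae. Another putative pupal cuticle protein, TC014500, had 6.42 RPKM in adults and 1452 RPKM in larvae.

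A different group of cuticle genes led in adults. Putative cuticle protein CP6, TC013135, had 2230.2 RPKM in adults and 17.7 RPKM in larvae (126-fold higher, 95% interval 86.3 to 191). Cuticular protein 6 of the RR-2 family, TC003109, had 428 RPKM in adults and 0 reads in larvae, and so was at least 224-fold higher. RR-2 proteins are known in beetles mainly from hard cuticle. The homologue of cuticular protein 62Bc, TC013811, had 194 RPKM in adults, again with 0 reads in larvae. Of 6 genes named as RR-1 family, 4 were higher in adults and 1 was lower, and of 8 named as RR-2 family, 2 were higher and 4 were lower.

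Tanning genes were few. Of 6 compared, 3 were higher in adults and none was lower, and the 3 were yellow-2, yellow-b and yellow-1. Yellow-2, TC003539, had 53.7 RPKM in adults and 8.94 RPKM in larvae. Yellow-c, TC016299, the most abundant of the list, was equal in both, with 223 RPKM in adults and 223 RPKM in larvae. Arylalkylamine N-acetyltransferase, TC001154, an enzyme that acetylates dopamine and other amines, had 296 RPKM in adults and 0.74 RPKM (2 reads) in larvae (400.4-fold higher, 95% interval 110.4 to 3313). All 8 Osiris genes were lower in adults. Osiris 7, TC011660, had 2.71 RPKM in adults and 209 RPKM in larvae, although its highest value, 2544 RPKM, was in embryos.

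Adults led most odorant-binding proteins, the small soluble carriers that bring odour molecules to receptors in the antenna. Of 44 compared, 31 were higher in adults and 5 were lower, and 12 were higher by at least 16-fold on the log2(RPKM + 1) scale. Odorant-binding protein C11, TC011410, had 9274 RPKM in adults and 55.6 RPKM in larvae (167-fold higher, 95% interval 134 to 210.4). C17, TC008162, had 901 RPKM in adults and a single read (0.717 RPKM) in larvae, and was 1257-fold higher (95% interval 225 to 49711). In larvae 10 of the 44 had no read, against 1 in adults.

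The summed level did not follow the number of genes. The 44 odorant-binding proteins summed to 21931 RPKM in adults and 22841 RPKM in larvae, and a pair of minus-C members were among the most abundant transcripts of larvae. C01, TC010066, had 283 RPKM in adults and 10082 RPKM in larvae (35.7-fold lower, 95% interval 32.1 to 39.8), and stayed at 9696 RPKM in pupae. C04, TC008757, was among the 10 most abundant genes of both libraries, with 6498 RPKM in adults and 9608 RPKM in larvae.

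Chemosensory proteins, a second family of small carriers, leaned the other way in number, with 7 of 18 higher in adults and 10 lower. Chemosensory protein 11, TC008681, was nevertheless the most abundant transcript of the adult library by RPKM, at 16387 RPKM against 32 RPKM in larvae (512-fold higher, 95% interval 381 to 704). Chemosensory protein 20, TC015902, had 129 RPKM in adults and 4029.9 RPKM in larvae (31.3-fold lower, 95% interval 26.6 to 37.1). Chemosensory protein 10, TC008682, was lower as well, with 643 RPKM in adults and 3273 RPKM in larvae. Another gene of that name, TC010151, went the other way, with 42.5 RPKM in adults and 0 reads in larvae. With protein 11 included, the 18 genes summed to 17843 RPKM in adults against 8564 RPKM in larvae.

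**Figure D2:**
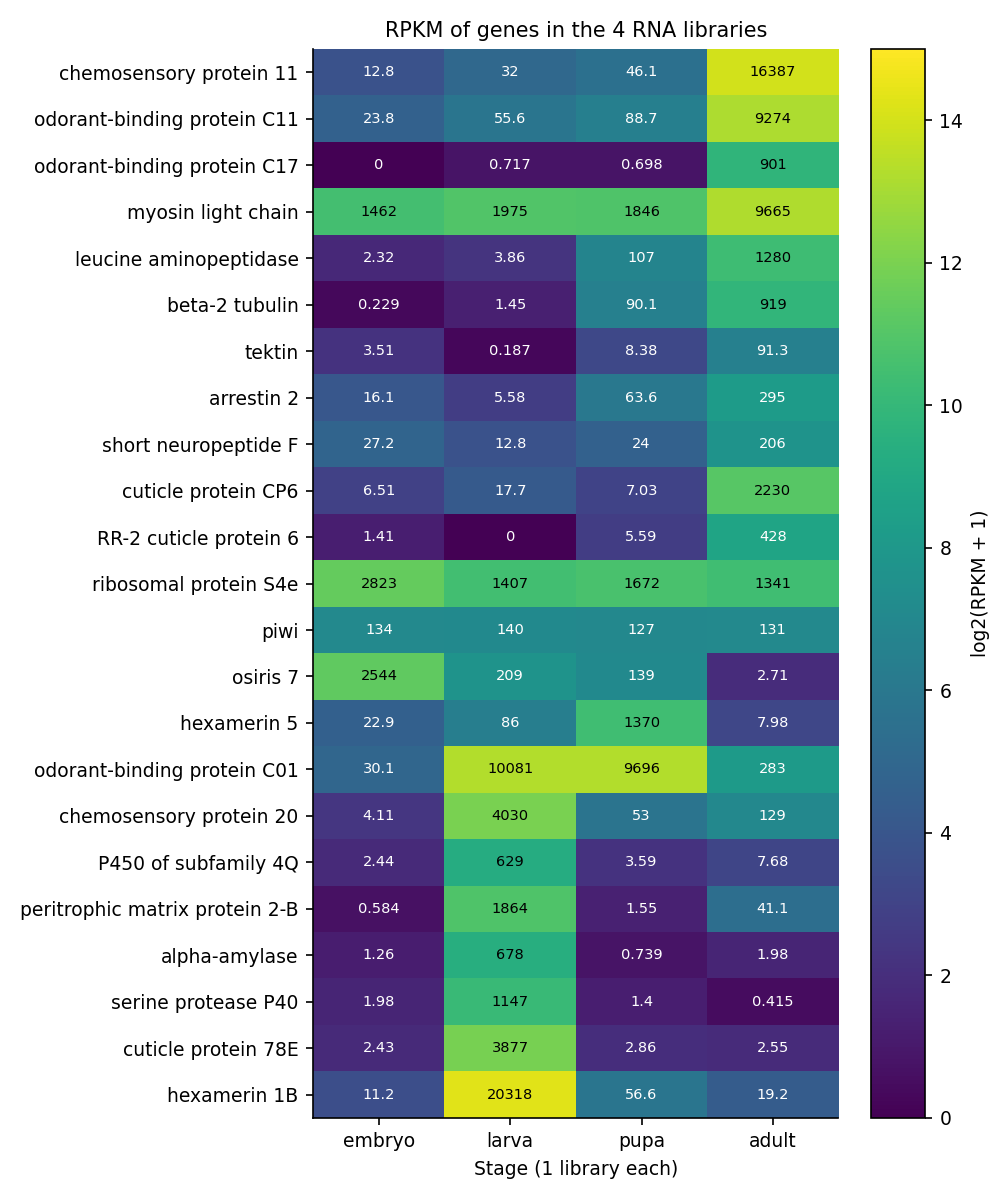
RPKM of 23 genes in the 4 RNA libraries, with stages from left to right in the order of development and the colour giving log2(RPKM + 1). The top block of 11 genes is highest in adults, ribosomal protein S4e and piwi are close to level in larvae and adults, and the lower block of 10 genes is at least 10-fold lower in adults than in larvae.

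Membrane receptors for odours and tastes were near the detection limit in whole bodies. Of 256 receptor genes listed, 36 reached 1 RPKM in adults or larvae. Of these, 17 were higher in adults (47.2%, against 23.3% of all genes) and 3 were lower (8.33%, against 13.7%). The filter shapes these counts, since a gene with 0 reads in 1 library entered only through the other. Larvae had 0 reads for 7 of the 18 odorant and 5 of the 18 gustatory receptors compared, and adults for 1 of each. All 256 together, including those below the filter, summed to 143 RPKM in adults and 64.9 RPKM in larvae. Odorant receptor 208, TC030371, had 18 reads (5.06 RPKM) in adults and none in larvae. Odorant receptor 76, TC012636, was the reverse, with no read in adults and 12 reads (3.01 RPKM) in larvae. Gustatory receptor 33, TC030145, was the most abundant receptor of both libraries, with 9.73 RPKM in adults and 6.95 RPKM in larvae, and differed by less than 2-fold. In each of the 20 receptor genes past 2-fold, both libraries had fewer than 20 reads.

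Photoreception genes were higher in adults in all 3 cases. Arrestin 2, TC009551, which shuts off light-activated opsin, had 295 RPKM in adults and 5.58 RPKM in larvae (52.8-fold higher, 95% interval 35.3 to 82.8). The long-wavelength type opsin named rhodopsin 1/6, TC013765, had 137 RPKM in adults and 4.92 RPKM in larvae (27.9-fold higher, 95% interval 17.8 to 46). Arrestin 1, TC013804, had 49.7 RPKM in adults and 3.21 RPKM in larvae. The order across stages differed between them: arrestin 2 was already at 63.6 RPKM in pupae, while the opsin was at 3.35 RPKM there.

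The list of neuronal genes leaned modestly to adults. Of 31 ion channel and synapse genes, 11 were higher (35.5%, against 23.3% of all genes) and 1 was lower (3.23%, against 13.7%). The list median was 0.54 above the median gene, or 0.25 above it with unrelated names kept. Among 12 nicotinic acetylcholine receptor subunits, 4 were higher in adults and none was lower, a small set beside the 23.3% and 13.7% of all genes. The alpha-11 subunit, TC004837, had 7.54 RPKM in adults and 1.44 RPKM in larvae. A hyperpolarization-activated cation channel, TC013687, had 6.87 RPKM in adults and 0.165 RPKM (1 read) in larvae (41.7-fold higher, 95% interval 7.03 to 1693). The one member lower in adults was an inward rectifier potassium channel, TC011616, with 5.88 RPKM in adults and 21.3 RPKM in larvae.

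Neuropeptides and their receptors had 4 of 12 higher in adults and 3 lower, a small set beside the 23.3% and 13.7% of all genes. Their list median of 0.39 relative to the median gene turned to -0.07 with unrelated names kept. Short neuropeptide F, TC030021, a peptide tied to feeding control in insects, had 206 RPKM in adults and 12.8 RPKM in larvae (16.1-fold higher, 95% interval 9.39 to 30.1). The adipokinetic hormone receptor, TC009772, through which fat stores are mobilised, had 14.9 RPKM in adults and 54 RPKM in larvae. Eclosion hormone, TC030006, which triggers shedding of the old cuticle, had 3 reads in adults and none in larvae. A G-protein coupled receptor, TC011656, stood at 2.32 RPKM in adults and 26.5 RPKM in larvae, but at 318 RPKM in embryos.

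Genes of the sperm tail and of motile cilia were mostly higher in adults. Of 12 compared, 10 were higher in adults and none was lower, with a median 3.54 above the median gene, or 2.01 above it with unrelated names kept. Tektin, TC005997, a filament protein of the axoneme, had 91.3 RPKM in adults and 1 read (0.187 RPKM) in larvae, and was 488-fold higher (95% interval 87.1 to 19316). A radial spoke head protein, TC008922, and an axonemal inner arm dynein light chain, TC011080, had 38.2 and 38.3 RPKM in adults, and larvae had 0 reads of both. The 2 members within 2-fold were oocyte-testis gene 1, TC011457, and the dynein heavy chain TC008801, which is a cytoplasmic type by its KEGG entry and had 26.4 RPKM in adults and 31.2 RPKM in larvae. By KEGG entry, 13 of 16 axonemal dynein heavy chains were higher in adults and none was lower. TC000119, the most changed of these, had 21.1 RPKM in adults and 0.114 RPKM in larvae (185-fold higher, 95% interval 78.7 to 569.8).

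The germline genes not tied to sperm that were matched by name were level apart from 1. Piwi, TC008711, a small-RNA guide protein of the germline, had 131 RPKM in adults and 140.2 RPKM in larvae. Of the 9 ovary and germline genes, 8 lay within 2-fold. The one above it, a tudor and KH domain protein (TC006774), had 61.4 RPKM in adults and 27.7 RPKM in larvae, and dropped under 2-fold on median-ratio rescaling. With KEGG names added, 2 of 11 were higher and none was lower. The oo18 RNA-binding protein TC011262, not among the 9, had 25.1 RPKM in adults and 0.569 RPKM (3 reads) in larvae.

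A number of the genes high in adults and near absent from larvae had a relative that both stages used at similar levels. Beta-2 tubulin, TC009035, had 919 RPKM in adults and 1.45 RPKM in larvae (633-fold higher, 95% interval 307 to 1575), beside beta-1 tubulin, TC009589, with 729 RPKM in adults and 1077 RPKM in larvae. Alpha-tubulin TC011027 had 402 RPKM in adults and 0.845 RPKM in larvae, beside alpha-tubulin 1, TC004873, with 1443 RPKM in adults and 1495 RPKM in larvae. In Drosophila a separate beta-2 tubulin is made in the testis and builds the sperm tail. Of the other tubulins, TC000273 and TC011969 were also high in adults, with 102 and 37.1 RPKM in adults against 0.422 and 0 RPKM in larvae, while the beta-tubulin TC009590 was lower, with 52.6 RPKM in adults and 274 RPKM in larvae.

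The same arrangement was counted over the KEGG field, a choice made after the values were seen. Genes of 1 KEGG entry were taken as copies, and an entry counted when 1 copy was at least 16-fold higher in adults, with at least 10 RPKM in adults and under 2 RPKM in larvae, and another copy was within 2-fold with at least 10 RPKM in both. Of 1502 entries with at least 2 genes, 152 held such a pair, through 209 adult-high genes. The reverse, a larva-high gene beside an even copy, was found in 25 entries through 35 genes. In all, 541 genes met the adult-high criterion and 118 the larva-high one. Of the 263 adult-high genes with a KEGG entry, 79.5% had an even copy, against 68.6% of the 51 larva-high genes and 53.8% of all 8511 genes with an entry. Entry size, which reached 54 genes for myosin heavy chain, was not matched between these groups, and an entry with more genes has more chances of an even copy. KEGG entries were assigned by similarity, so copies share an entry and not always a function.

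Several of these adult-high copies, picked as examples after their values were seen, belong to energy metabolism. Malate dehydrogenase TC012844 had 137 RPKM in adults and 0.989 RPKM in larvae (138-fold higher, 95% interval 53.6 to 509), TC007643 had 93.6 RPKM in adults and 0.249 RPKM in larvae, and TC005504 had 56.8 RPKM in adults and 0 reads in larvae. The even malate dehydrogenase TC015050 had 361 RPKM in adults and 208 RPKM in larvae. A citrate synthase by KEGG entry, TC014588, had 134 RPKM in adults and 0.606 RPKM in larvae, against 53.3 RPKM in adults and 68.3 RPKM in larvae for the even TC009499. Cytochrome c oxidase subunit VIc, of the respiratory chain, made another such pair. One copy, TC011006, had 103 RPKM in adults and 0 reads in larvae (at least 34-fold higher), and the other, TC030046, had 146 RPKM in adults and 161 RPKM in larvae.

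Further examples came from glycolysis and general cell machinery. An enolase by KEGG entry, TC011729, had 203 RPKM in adults and 0.429 RPKM in larvae, beside an even copy, TC012754, with 189 RPKM in adults and 187 RPKM in larvae. Pyruvate kinase TC006543 had 96.9 RPKM in adults and 0.174 RPKM in larvae, and TC004380, its even copy, had 186 RPKM in adults and 128 RPKM in larvae. A proteasome subunit matched to the activator PA28, TC006616, had 116 RPKM in adults and 0.777 RPKM (2 reads) in larvae (149.5-fold higher, 95% interval 41 to 1241). Heat shock protein 10, the mitochondrial co-chaperonin (TC010501), had 60.5 RPKM in adults and 0 reads in larvae. The cytosolic ribosomal proteins, otherwise level, had 2 such members: a second S6, TC001281, with 29.9 RPKM in adults and 0.77 RPKM in larvae, and a second L13, TC013086, with 30.9 RPKM in adults and 0.937 RPKM in larvae.

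The 209 adult-high copies were not chosen on their pupal level. By the rule they were high in adults and low in larvae, and their median level was 58.0 RPKM in adults, 0.287 RPKM in larvae and 4.90 RPKM in pupae. The pupal level was a small share of the adult level, with a median of 8.43% and quartiles at 6.34% and 11%. Beta-2 tubulin, TC009035, was at 90.1 RPKM in pupae and tektin, TC005997, at 8.38 RPKM. Over all 541 genes that met the adult-high criterion, the median pupal share was 7.66%, with quartiles at 5.17% and 10.5%. Not all copies had such a pupal level: of the 209, 192 were higher in pupae than in larvae and 183 reached 1 RPKM in pupae. Odorant-binding protein C17 (TC008162) and lipase TC011212 are among the 209, but their pupal levels of 0.698 and 0.247 RPKM were a far smaller share.

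**Figure D3:**
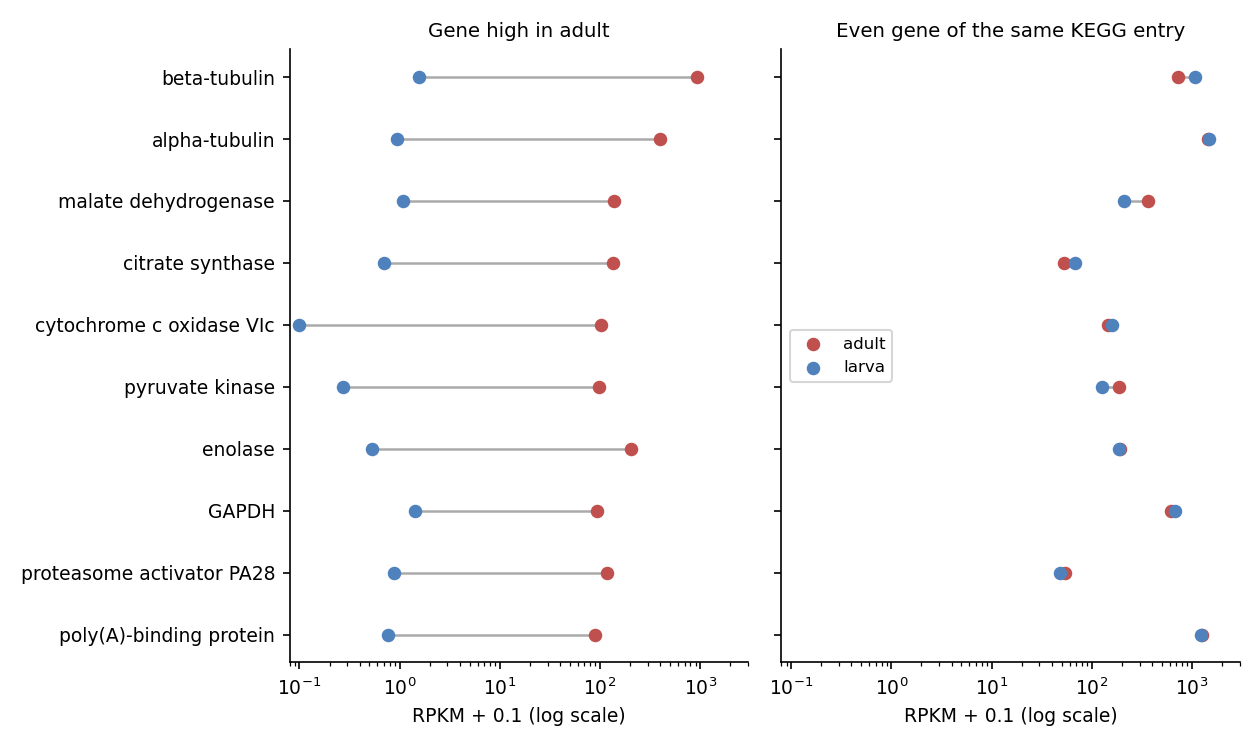
RPKM + 0.1 (log scale) in adults (red) and larvae (blue) for 10 KEGG entries chosen as examples, with the copy that is high in adults on the left and an even copy of the same entry on the right. The left-hand copies have 89.7 to 919 RPKM in adults and under 2 RPKM in larvae, while the right-hand copies differ by less than 2-fold. The point at the left edge, cytochrome c oxidase VIc in larvae, is at 0 reads.

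Respiratory chain genes were higher in adults as a body and by a small factor. Of 41 oxidative phosphorylation genes, 30 were higher in adults and none was lower, with a median 0.91 above the median gene. The beta subunit of mitochondrial ATP synthase, TC015322, the most abundant of them, had 1772 RPKM in adults and 707 RPKM in larvae (2.51-fold higher, 95% interval 2.41 to 2.6). A Rieske iron-sulfur subunit, TC000043, had 287 RPKM in adults and 105 RPKM in larvae. Since the list sits close to the 2-fold line, its count depends on scaling: 14 of 41 were past 2-fold after median-ratio rescaling and 20 with the most abundant genes left out of the totals, and none was lower under these settings. By GO term, 22 of 31 genes of the respiratory electron transport chain were higher in adults and none was lower.

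Citric acid cycle genes had 8 of 15 higher in adults and 1 lower. Citrate synthase TC013214 had 287 RPKM in adults and 94.4 RPKM in larvae, while aconitase TC005725 was within 2-fold, with 394 RPKM in adults and 276 RPKM in larvae. The 3 adult-high malate dehydrogenase copies above are among the 8. The member lower in adults was a succinyl-CoA synthetase beta chain, TC005166, at 33.8 RPKM in adults and 71.4 RPKM in larvae. Mitochondrial ribosomal proteins had 7 of 27 higher in adults (25.9%, near the 23.3% of all genes) and none lower, and 1 of 27 past 2-fold after median-ratio rescaling.

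Muscle genes parted by member. Myosin light chain, TC011769, had 9665 RPKM in adults and 1975 RPKM in larvae (4.89-fold higher, 95% interval 4.76 to 5.03) and took 0.832% of adult reads. Tropomyosin 1, TC011461, and muscle-specific protein 300, TC010669, were higher as well, with 2346 and 233 RPKM in adults against 898 and 72.9 RPKM in larvae. Troponin C of type IIIa, TC012196, was level, with 204 RPKM in adults and 268 RPKM in larvae, and so was troponin C TC012704, at 779 RPKM in adults and 870.5 RPKM in larvae. A further troponin C relative, named after the cockroach allergen Bla g 6 (TC012270), had 1353 RPKM in adults and 2 reads (1.27 RPKM) in larvae (1067-fold higher, 95% interval 295 to 8815). Over the list, 3 of 8 genes were higher in adults and none was lower. The list median turned from -0.06 to 0.63 relative to the median gene with KEGG names added, when 53 of 126 were higher and 4 were lower. KEGG entries were assigned by similarity, so the genes added this way need not be muscle genes.

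Cytosolic ribosomal proteins were even. Of 70 compared, 68 lay within 2-fold, and the list median was -0.21 relative to the median gene. Ribosomal protein S15Ae, TC012128, the most abundant, had 2573 RPKM in adults and 2838 RPKM in larvae, and S6 (TC010830) had 1538 RPKM in adults and 1469 RPKM in larvae. Translationally controlled tumor protein, TC014289, was similarly level at 1781 RPKM in adults and 1747 RPKM in larvae. The DNA methylation genes also differed by less than 2-fold. DNA methyltransferase 1, TC013587, had 16.8 RPKM in adults and 19.8 RPKM in larvae.

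Proteasome subunits, which degrade tagged proteins, were lower in adults by a small factor. Of 21 compared, 11 were lower in adults and 1, the PA28-type copy above, was higher, with a list median of -1.20 relative to the median gene. The regulatory subunit TC006375 had 70.3 RPKM in adults and 211 RPKM in larvae (3.0-fold lower, 95% interval 2.6 to 3.46), and the alpha-4 subunit TC008727 had 89.7 RPKM in adults and 193 RPKM in larvae. After median-ratio rescaling 16 of 21 were lower. Of 35 replication and cell cycle genes, 27 were within 2-fold. Of the rest, 6 were higher in adults (17.1%, against 23.3% of all genes) and 2 were lower (5.71%, against 13.7%). A CDC14 phosphatase, TC008603, led the 6 with 255 RPKM in adults and 0.656 RPKM (3 reads) in larvae (389-fold higher, 95% interval 133 to 1888), while the replicative helicase subunit MCM7, TC013713, had 12.2 RPKM in adults and 35.1 RPKM in larvae.

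Of 121 cytochrome P450 enzymes, which oxidise hormones, lipids and foreign compounds, 28 were higher in adults (23.1%, near the 23.3% of all genes) and 46 were lower (38.0%), with a list median of -0.78 relative to the median gene. A family 4 enzyme of subfamily Q, TC012502, had 7.68 RPKM in adults and 629 RPKM in larvae (81.8-fold lower, 95% interval 59 to 117). P450 334B1, TC007770, was its opposite, with 67.6 RPKM in adults and 0 reads in larvae (at least 141-fold higher). The most abundant P450 of both libraries was 9F2, TC006445, with 1306 RPKM in adults and 2106 RPKM in larvae. By family name, 6 of 10 members of family 4 were lower in adults and 1 was higher. Of 36 members of family 6, 10 were higher and 5 were lower, which is close to the shares over all genes.

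Conjugating enzymes, which attach glutathione, sulfate or sugar to make compounds soluble, leaned to adults. Of 14 compared by protein name, 9 were higher in adults and 1 was lower, and 7 of the 10 glutathione S-transferases were higher. Glutathione S-transferase 6A, TC004443, had 48.6 RPKM in adults and 11 RPKM in larvae. Sulfotransferases went both ways, with TC012467 at 23.8 RPKM in adults and 0.579 RPKM (2 reads) in larvae and TC012015 at 2.01 RPKM in adults and 177 RPKM in larvae. When names from the KEGG field were added, the list grew to 66 genes with 18 higher and 14 lower, and its median passed to -0.27 relative to the median gene. Carboxylesterases had 2 of 12 higher in adults and 5 lower, but 5 of 20 higher and 5 lower with unrelated names kept, so their lean rests on names left out after the values were seen. Alpha-esterase TC015230 had 58 RPKM in adults and 0.343 RPKM (2 reads) in larvae, and esterase TC009692 had 11.7 RPKM in adults and 161 RPKM in larvae.

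Genes of fat synthesis were mostly lower in adults. Of 14 lipid synthesis genes, 10 were lower and 1 was higher, with a list median of -1.83 relative to the median gene. With KEGG names added, 33 of 66 were lower and 11 were higher, and the median was -1.22. Acyl-CoA desaturase A, TC011471, which puts a double bond into fatty acids, had 6.71 RPKM in adults and 161 RPKM in larvae (24-fold lower, 95% interval 15.7 to 38.7). A fatty acid elongase, TC011938, had 23.6 RPKM in adults and 246 RPKM in larvae. Fatty acid synthase TC011522 stood at 11.2 RPKM in adults and 88.4 RPKM in larvae. The reverse held for TC008915, a fatty acid synthase by KEGG entry, with 170 RPKM in adults and 0.309 RPKM (3 reads) in larvae. A fatty acyl-CoA reductase by KEGG entry, TC006122, an enzyme type that makes fatty alcohols, had 0.878 RPKM in adults and 169 RPKM in larvae. Sugar transporters showed no common direction, with 2 of 17 higher in adults and 3 lower.

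Protease inhibitors had 15 of 29 lower in adults (51.7%, against 13.7% of all genes) and 7 higher (24.1%, near the 23.3% of all genes). With KEGG names added, 15 of 35 were lower and 10 were higher, and the list median was -0.75 in place of -1.32 relative to the median gene. Of 27 serpins, 13 were lower and 7 were higher in adults, and the share higher was likewise near that of all genes. For 6 of those 7, larvae had 0 reads. Serpin 23, TC005771, had 45.9 RPKM in adults and no larval read, and was at least 63.4-fold higher. Serpin 1, TC000760, was the most abundant in larvae, with 111 RPKM in adults and 528 RPKM in larvae.

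Immune genes held 9 of 21 lower in adults (42.9%, against 13.7% of all genes) and 2 higher (9.52%, against 23.3%). Thaumatin-like protein TC011564, related to plant defence proteins, had 5.3 RPKM in adults and 461 RPKM in larvae (87-fold lower, 95% interval 48.4 to 175). TC000515, of the same family, had 23.3 RPKM in adults and 495 RPKM in larvae, while TC000517 was level at 106 RPKM in adults and 114 RPKM in larvae. The antimicrobial peptide defensin 1, TC012469, had 1 read (1.29 RPKM) in adults and 27 reads (30.0 RPKM) in larvae (23.3-fold lower, 95% interval 3.84 to 954). Toll-like protein TC000176 was higher, with 10.7 RPKM in adults and 0.779 RPKM in larvae. Heat shock proteins had 6 of 20 higher in adults (30.0%, against 23.3% of all genes) and 5 lower (25.0%, against 13.7%). Small heat shock protein 21, TC006593, had 25.2 RPKM in adults and 598 RPKM in larvae.

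Of 27 hormone genes, 2 were higher in adults (7.41%, against 23.3% of all genes) and 6 were lower (22.2%, against 13.7%), with a list median of -0.53 relative to the median gene. Broad-complex, TC005476, a transcription factor of the ecdysone response that is needed for the pupal stage in beetles, had 2 reads (1.86 RPKM) in adults and 51 reads (41 RPKM) in larvae (22-fold lower, 95% interval 5.79 to 187). A juvenile hormone-inducible protein, TC010205, was higher, with 41.6 RPKM in adults and 8.64 RPKM in larvae. Hormone receptor 46, TC008909, had 12 RPKM in adults and 40.6 RPKM in larvae, but 462 RPKM in embryos and 323 RPKM in pupae. Homeobox genes, chiefly embryonic regulators, had 6 of 13 higher in adults and none lower. Levels were low, and all 18 genes so named, including those below the filter, summed to 122 RPKM in adults and 94.0 RPKM in larvae. With KEGG names added, 13 of 66 were higher and 12 were lower, and the list median turned from 0.29 to -0.34 relative to the median gene.

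**Figure D4:**
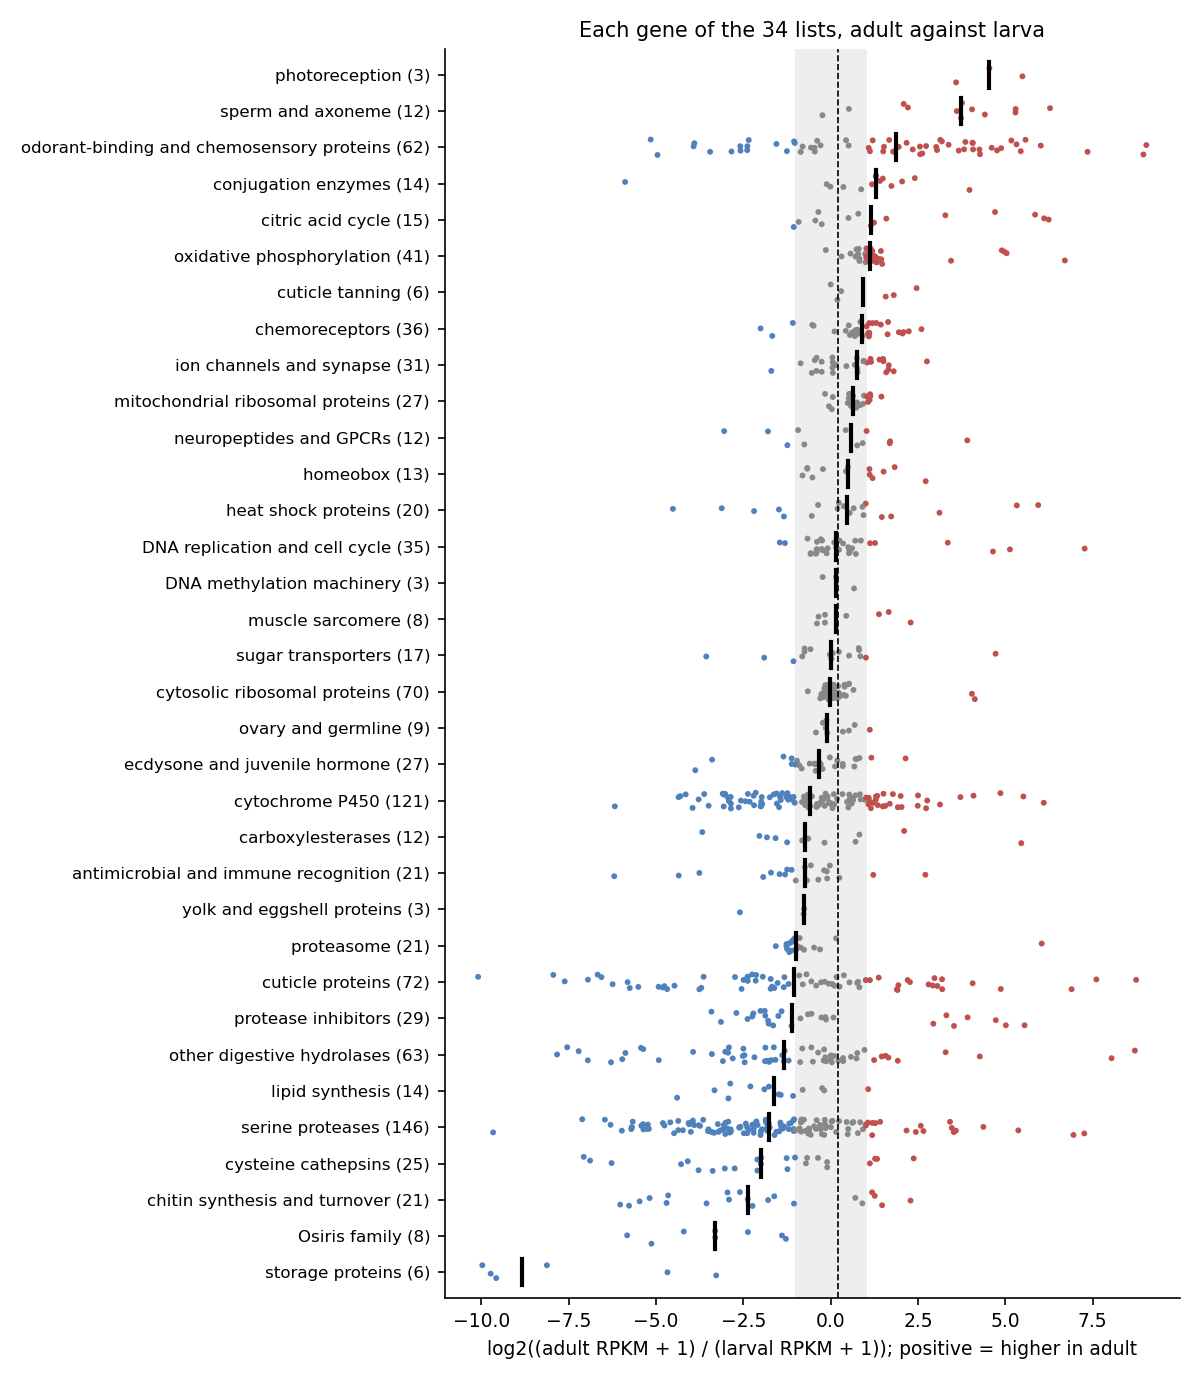
log2 of (adult RPKM + 1) over (larval RPKM + 1) for each gene of the 34 lists (points), with list medians as black bars and the number of genes compared in brackets. The grey band holds genes within 2-fold and the dashed line is the median of all genes compared. Photoreception and sperm and axoneme genes have the highest medians and storage proteins and Osiris genes the lowest, while P450s, cuticle proteins and serine proteases spread widely to both sides.

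The KEGG and GO fields gave a view that did not use protein names. Of 90 KEGG entries with at least 10 genes, alpha-amylase had the lowest median, -4.47 relative to the median gene, with 9 of 10 genes lower in adults. Chymotrypsin followed with 21 of 23 lower and 1 higher. The juvenile hormone esterase entry had 10 of 16 lower and none higher, and the animal fatty acid synthase entry 7 of 11 lower and 2 higher. At the other end stood axonemal dynein heavy chain, 2.65 above the median gene. The myosin heavy chain entry had 27 of 54 higher and none lower, but not all of its genes are named as myosins. TC015257 of this entry is coiled-coil domain containing 65 by its protein name, with 112 RPKM in adults and 0.39 RPKM in larvae. Several other members that were high in adults and near absent in larvae have no informative name. Some entries name a function their genes are not known for: most of the 18 genes with the entry for a bromodomain protein are chemosensory proteins by their protein names, and several serine proteases carry a G-protein alpha subunit entry.

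GO terms gave related groups. Of 32 genes with hydrolase activity on glycosyl bonds, 22 were lower in adults and 1 was higher, and of 93 with endopeptidase activity, 40 were lower and 12 were higher. Of 11 genes of hexose metabolism, 6 were lower in adults and none was higher. The proteasome regulatory particle had 5 of 10 lower and none higher. Among terms with high medians, hydrogen transport had 8 of 12 higher in adults, regulation of synaptic transmission 6 of 10, sensory perception of chemical stimulus 8 of 15, motor activity 15 of 26 and G-protein coupled receptor signalling 15 of 34, and none of these 5 terms had a gene lower in adults. In the synaptic term the most changed gene was a metabotropic glutamate receptor, TC004727, with 4.64 RPKM in adults and 0.718 RPKM in larvae.

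**Figure D5:**
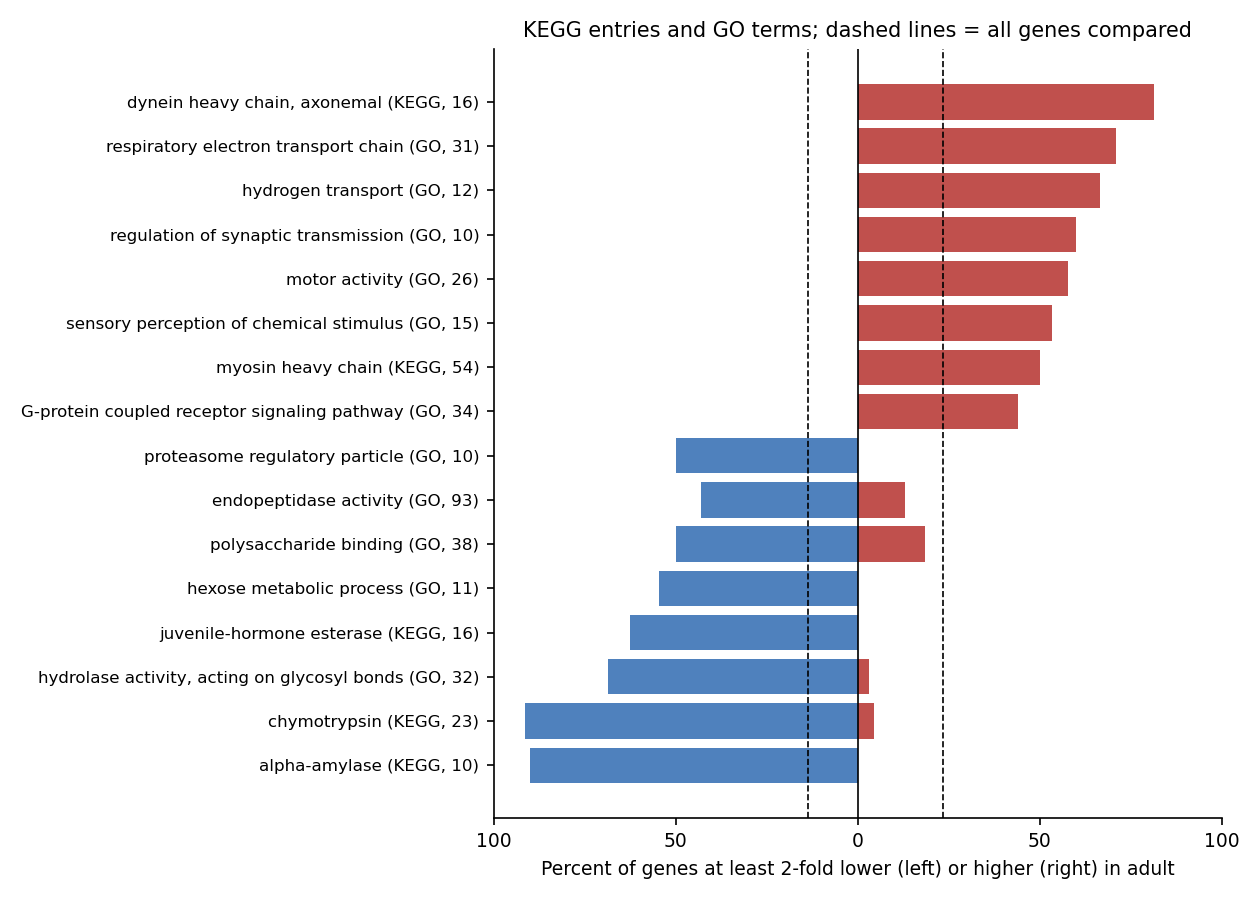
Percent of genes at least 2-fold higher (right) or lower (left) in adults for 16 KEGG entries and GO terms, with the number of genes compared in brackets. KEGG names were assigned by similarity and need not be the function of each gene. The dashed lines give the shares over all genes compared, 23.3% higher and 13.7% lower. The upper 8 terms have no gene lower in adults, and in each of the lower 8 the share lower in adults exceeds 13.7%.

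Levels in pupae and embryos were set beside these differences. Genes chosen as higher in adults cannot peak in larvae, and genes chosen as lower cannot peak in adults. The choice therefore favours an adult or a larval peak in advance, and peak shares over all genes compared are not given here. Of the 2961 genes at least 2-fold higher in adults, 2255 (76.2%) had their highest value of the 4 stages in adults and 574 in embryos. Of the 1743 that were lower, 1211 (69.5%) peaked in larvae, 288 in pupae and 244 in embryos. All 613 genes at least 16-fold higher in adults peaked there, with medians of 0.414 RPKM in embryos, 0.306 RPKM in larvae, 5.29 RPKM in pupae and 71.7 RPKM in adults. Of the 255 genes at least 16-fold lower, 226 peaked in larvae, and their medians were 1.15 RPKM in embryos, 182 RPKM in larvae, 1.84 RPKM in pupae and 2.32 RPKM in adults. Serine protease P40 belonged to this larval set, with 1.98 RPKM in embryos, 1147 in larvae, 1.4 in pupae and 0.415 in adults.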

How the data were processed

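Poly(A) RNA of whole bodies was sequenced on an Illumina Genome Analyzer, 1 library per stage, per the labels' protocols. The authors deposited, per gene and library, a count of uniquely mapped reads, an RPKM value and the percent of the gene model covered, per the file headers, with protein, KEGG and GO annotation in the same tables. CASAVA 1.8.2, SAMtools 0.1.19 and the bisulfite aligner BSMAP 2.73 are listed in the submitters' processing notes. Neither the RNA aligner nor the gene build is stated in the labels or file headers, and therefore no coordinates or sequences are printed. Of the gene models, 99.4% have lengths that are multiples of 3, as coding lengths would be. Unique mapping undercounts near-identical copies, and no step that uses strand is named, so reads of overlapping genes could not be told apart.

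A gene missing from a library's table was taken as 0 reads. Ratios of the deposited RPKM values were computed in Python 3.11.15 with numpy 2.4.6, pandas 2.3.3 and scipy 1.17.1, and plots with matplotlib 3.10.9. Genes were counted higher or lower at 2-fold on log2(RPKM + 1), and, as a further class, at 16-fold. Intervals are exact conditional binomial 95% intervals on the reads. Against 0 reads the fold is a lower bound, computed with a floor of 3 reads in that library. The computation was tested on simulated counts.

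The genes compared and the 34 gene lists, matched on protein names, were chosen with earlier results of these data known. A list for takeout and juvenile hormone-binding proteins matched no takeout name and was not used. The named genes were, by rule, the 20 genes furthest apart each way that have an informative name and 10 RPKM or more in 1 library (at most 3 per list), the most changed and the most abundant members of each list, the 10 most abundant genes of each library, the 10 highest genes with 0 reads in the other library, the 10 most abundant named genes within 1.2-fold, every member of a list of 5 or fewer, and the most changed genes of the KEGG and GO terms given. Sub-groups of lists, KEGG copies, the exclusion of unrelated names and genes such as the even copies were chosen after their values were seen. Alternatives tried were median-ratio and TPM rescaling, totals without the 20 most abundant genes, a pseudocount of 0.1 RPKM, a filter of 5 RPKM or none, the larval library thinned to the adult total, models of at least 300 bases, a 4-fold threshold, intervals beyond 2-fold, and names from the KEGG field.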

Additional observations from a re-analysis of the deposited data

How the results depend on the processing

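No paired analysis was possible because each stage has 1 library, and for the same reason no library could be left out. The median gene stood at 0.0086 after median-ratio rescaling and at 0.0814 when totals were taken without each library's 20 most abundant genes, against 0.20 with the deposited RPKM. Among genes past 2-fold, the share higher in adults was 55.5% and 58.8% under these scalings, against 62.9%. With the whole interval beyond 2-fold, 1728 genes were higher in adults and 1080 lower, and at 4-fold 1314 were higher and 802 lower. Both counts under every other setting tried were within 1.5 times the reported ones.

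A list median relative to the median gene was counted as moved when it shifted by 0.5 or more on the log2 scale, and none of the 34 did under the 2 scalings. The conjugation enzymes reversed to -0.27 with KEGG names added, a setting that brings in genes not named in the protein field. That setting moved 9 other medians and kept their direction except for muscle, which stood at 0.63, and homeobox genes, at -0.34. A pseudocount of 0.1 moved 5 medians away from 0, among them chemoreceptors, at 1.62, and Osiris genes, at -5.18. A filter of 5 RPKM and keeping unrelated names, both added after the data were seen, moved 2 and 3 medians. The filter took yolk proteins to -1.86 and tanning genes to 1.4, and keeping unrelated names took chitin genes to -1.07, carboxylesterases to -0.30 and sperm and axoneme genes to 2.01. Of 241 named genes, median-ratio rescaling took 3 below 2-fold (TC000933, TC006774 and TC015382, at 0.95, 0.92 and 0.92) and 4 above it, and none reversed. Depth limits weakly expressed genes, since the median listed gene had 71 reads in adults and 81 in larvae.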

Other observations

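Much of what separated the stages most widely had no informative protein name. Such a name was held by 29.7% of the genes compared, 21.5% of those at least 16-fold higher in adults and 37.6% of those at least 16-fold lower. TC001049 had 9319.9 RPKM in adults and 5.48 RPKM in larvae (1700.0-fold higher, 95% interval 924 to 3546), and its KEGG entry is a cysteine endopeptidase class. TC014462 had 6680.1 RPKM in adults and 3.07 RPKM in larvae, and TC010164 had 5239.7 RPKM in adults and 4.24 RPKM in larvae. Both were among the 10 most abundant genes of adults. TC003230 had 3024 reads (402 RPKM) in adults and none in larvae, and was at least 1168-fold higher. TC011799 stood at 1666 RPKM in adults, also with 0 reads in larvae.

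The larval library had its own unnamed leaders. TC012207, second only to hexamerin 1B in larvae, had 33.8 RPKM in adults and 16504 RPKM in larvae (488-fold lower, 95% interval 408 to 589). TC013741 had 10.3 RPKM in adults and 5584 RPKM in larvae, where it took 2.42% of reads. TC006358, TC003037 and TC003048 stood at 3.72, 19.6 and 52 RPKM in adults against 5902, 5168 and 4811 RPKM in larvae. TC003039 had 0 reads in adults and 1166 RPKM in larvae, and was at least 245-fold lower. Among genes with a name, ADFb-like TC009959 was one of the widest gaps towards adults, with 3758 RPKM in adults and 3 reads (2.04 RPKM) in larvae (1842-fold higher, 95% interval 629.8 to 8933). A second ADFb-like gene, TC009955, had 2162 RPKM in adults and 2.39 RPKM in larvae.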
